A study of Homo sapiens with 6 samples.

Results

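The genes described here are 33 genes of the amino acid response. They are the transcription factor ATF4 itself, EIF2AK4, which encodes a kinase upstream of it, and targets or partners of ATF4. They were chosen by name, and each was measured by 1 probe set of the 25088 on the array, so all 33 were found and none was removed by a filter. They were grouped by role into 13 stress regulators, 9 genes of serine, one-carbon and asparagine synthesis, 5 transport genes and 6 genes of tRNA charging and export. The samples were 6 arrays of SW480, an established cell line from a human colorectal adenocarcinoma. In 3 of them the cells had been transiently transfected by liposomes with a plasmid expressing TUSC3, a subunit of the oligosaccharyltransferase that attaches N-glycans to proteins in the endoplasmic reticulum, and in the other 3 with the empty vector (EV). All cells came from this line and were grown with serum and added glutamine. The labels number the replicates but do not say that they were transfected separately, so the spread between samples that the p-values rest on may be technical.

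When amino acids run short or misfolded proteins collect in the endoplasmic reticulum, kinases phosphorylate the translation factor eIF2, overall protein synthesis slows, and the ATF4 message is translated more. ATF4 protein pairs with other bZIP factors and raises transcription of genes for amino acid synthesis, uptake and tRNA charging, and of regulators that end the response or lead to cell death. ATF4 itself is controlled largely at translation, and ATF4 protein was not measured here. The comparison addresses whether these transcripts differ when TUSC3 is added to the cells.

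ATF4 and its C/EBP partners bind a composite element whose core is TGATGNAA. RefSeq promoters (GRCh38.p14, 250 bases before to 50 after a start site) were held for 29 of the 33 genes. This core lay on either strand in a promoter of 10 of them, or 34.5%, against 4.46% of the 27305 genes in the table. Per promoter the share was 10 of 46 (21.7%) against 3.62% of 35116. Because the genes were chosen around ATF4, most of them as its targets, this is a description of the set and not a finding of the experiment. A match is not a measured binding site. A missing match does not show that a gene lacks an element, since only these windows and this core were searched. The matches are shown with up to 11 bases on either side, less where the promoter window ends, 5′ to 3′ on the gene's strand, the core in capitals. It reads TGATGNAA where it lies on the gene's strand, and its reverse complement in CHAC1, SLC3A2, AARS1 and GARS1.
ATF3 (chr1:212565205-212565234, plus strand): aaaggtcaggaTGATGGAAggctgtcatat
CEBPG (chr19:33374060-33374089, plus strand): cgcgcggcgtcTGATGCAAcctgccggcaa
CHAC1 (chr15:40953251-40953280, plus strand): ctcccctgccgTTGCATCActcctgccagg
ASNS (chr7:97872458-97872487, minus strand): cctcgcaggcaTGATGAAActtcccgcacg
SLC3A2 (chr11:62881725-62881748, plus strand): tgcaggactccTTACATCAgctcc
SLC7A1 (chr13:29595663-29595692, minus strand): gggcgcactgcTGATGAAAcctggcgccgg
SLC1A5 (chr19:46784893-46784922, minus strand): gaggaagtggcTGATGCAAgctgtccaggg
AARS1 (chr16:70289675-70289704, minus strand): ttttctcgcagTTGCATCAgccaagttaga
GARS1 (chr7:30594834-30594863, plus strand): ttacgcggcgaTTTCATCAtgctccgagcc
NARS1 (chr18:57621804-57621833, minus strand): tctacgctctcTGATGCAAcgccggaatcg
In ASNS, the gene of asparagine synthetase and the classic reporter of this response, the core began at position -68 relative to the start site. The 250 bases before the ASNS start site, at chr7:97872409-97872658 on the minus strand, are printed because the gene is the textbook target of ATF4.
ASNS promoter: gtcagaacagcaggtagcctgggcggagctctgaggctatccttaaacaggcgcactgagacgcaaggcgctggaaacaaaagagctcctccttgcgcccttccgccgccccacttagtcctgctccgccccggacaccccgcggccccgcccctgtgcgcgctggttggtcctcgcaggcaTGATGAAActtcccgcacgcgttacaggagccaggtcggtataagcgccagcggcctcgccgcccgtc
In CEBPG the core began at position -42, in SLC1A5 at -97 and in CHAC1 at -209. In SLC3A2, SLC7A1 and NARS1 it lay after the start.

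None of the 33 genes changed past the threshold, an adjusted p under 0.05 (limma), when TUSC3 was added. The range of each gene across the 6 arrays was 0.66 or less on the log2 scale, widest for ALDH1L2 (0.66) and ATF3 (0.59). The differences, TUSC3 minus EV on the log2 RMA scale, ran from -0.24 for ALDH1L2 to 0.17 for PPP1R15A, with a median of 0.0016, beside a median of 0.00075 over all probe sets. The difference was above 0 for 17 genes and below 0 for 16, where 50.3% of all probe sets lay above 0. A change of 1.5-fold or more in either direction lay outside the 95% interval for each of the 33 genes, against 90.7% of all probe sets and 96.1% of those with a mean at or above the array median. Neither of these sets was matched to the 33 genes in level. ALDH1L2 met this bound narrowly, with a lower end of 0.668-fold, and no longer met it in 6 of the 13 alternative settings, while the other 32 genes met it in every one.

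By the same test 0.00399% of all probe sets passed, which was the TUSC3 probe set alone. The TUSC3 level read 13.13, 13.11 and 13.09 in TUSC3 replicates 1 to 3 and 4.57, 4.33 and 4.63 in EV replicates 1 to 3, so the labels matched the transfected gene, and the difference was 8.60 (limma, adjusted p = 9.51e-08). At an unadjusted p under 0.05, 1 of the 33 genes was counted, PPP1R15A, against 6.66% of all probe sets. The 3 TUSC3 arrays lay wholly above or below the 3 EV arrays for 3 genes (9.09%), against 12.2% of all probe sets. They were higher for 2 of these, PPP1R15A and PSPH (6.06%, against 6.1% of all probe sets), and lower for 1, SLC1A5 (3.03%, against 6.09%). These shares are near or below the background.

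**Figure D1:**
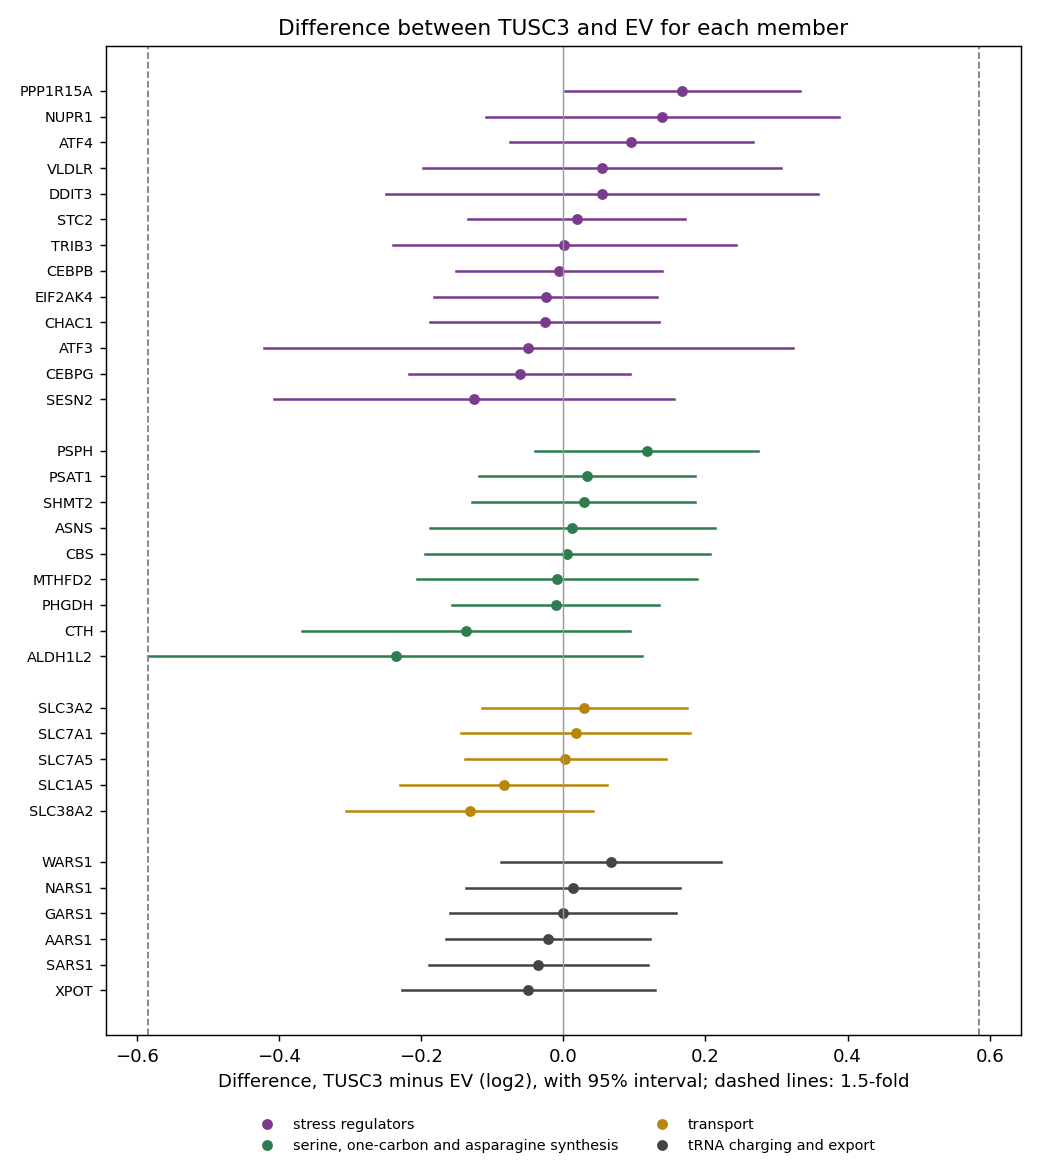
Difference between TUSC3 and EV arrays for each of the 33 genes on the log2 scale (x axis), grouped by role, with points for the fitted difference and bars for the 95% interval from limma. The dashed lines mark 1.5-fold, and all 33 intervals lie between them, ALDH1L2 reaching nearest to the lower line.

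The levels are array signals averaged over all cells, so fewer expressing cells and less RNA per cell cannot be told apart. The share of cells that took up the plasmid and the time between transfection and harvest are facts not given in the sources used here. Every array had the same median of 5.50 after the authors' normalization. Levels of different probe sets are given beside this median or each other as signals, not as a ranking of transcript amounts. Of the 10 colorectal epithelial markers, EPCAM had an EV level of 12.44, KRT19 12.49 and KRT18 11.09, while KRT20 was at 4.23 and CDX1 at 5.09, both below the array median. The leukocyte gene PTPRC, the endothelial gene PECAM1 and the fibroblast gene DCN were between 2.55 and 3.08. Of the markers of other lineages, LYZ at 7.24, COL1A1 at 6.51 and THY1 lay above the array median, and CD79A at 5.49 and CSF1R at 5.48 close to it. None of the 29 markers measured passed the threshold between the groups (limma), and 1, THY1 at -0.33, had an unadjusted p under 0.05.

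Of the 13 stress regulators 7 had differences above 0 and 6 below, with a median of 0.0016. EIF2AK4 encodes GCN2, the kinase that senses uncharged tRNA and phosphorylates eIF2. Its level ran from 9.80 to 9.92 over the 6 arrays and the groups overlapped, with a difference of -0.025 and an interval of -0.18 to 0.13. ATF4 read 10.47, 10.57 and 10.41 in TUSC3 replicates 1 to 3 and 10.42, 10.42 and 10.33 in EV replicates 1 to 3. TUSC3 replicate 2 was the highest array and EV replicate 3 the lowest, and the groups overlapped, since TUSC3 replicate 3 lay below EV replicates 1 and 2. The means were 10.49 ± 0.0790 and 10.39 ± 0.0520 (SD, n = 3 each), and TUSC3 minus EV came to 0.095 (SE 0.072, 95% interval -0.075 to 0.27; limma, unadjusted p = 0.228, adjusted p = 0.848).

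The bZIP partners of ATF4 and the factors it induces gave small differences of both signs. CEBPB, which dimerises with ATF4, was the steadiest of them, between 6.91 and 6.97 on all 6 arrays, with a difference of -0.0058 and an interval of -0.15 to 0.14. CEBPG, another dimerisation partner, ran from 8.82 to 8.96 and differed by -0.062 (-0.22 to 0.094). ATF3 and DDIT3 are induced downstream of ATF4, and DDIT3 encodes CHOP, which promotes apoptosis under prolonged stress. ATF3 read 7.25, 7.04 and 7.07 in TUSC3 replicates 1 to 3 and 7.29, 6.81 and 7.41 in EV replicates 1 to 3. Here the spread lay within the EV group, whose replicate 2 was the lowest of all arrays and replicate 3 the highest, and the difference was -0.049 (-0.42 to 0.32). DDIT3 read 6.98, 7.01 and 6.80 in TUSC3 replicates 1 to 3 and 7.09, 6.62 and 6.91 in EV replicates 1 to 3. EV replicate 2 was again the lowest and EV replicate 1 the highest, and the difference was 0.054 (-0.25 to 0.36). NUPR1, a small stress-induced chromatin-associated protein gene, read 5.43, 5.61 and 5.48 in TUSC3 replicates 1 to 3 and 5.45, 5.17 and 5.50 in EV replicates 1 to 3. Its mean lay close to the array median, where signal and background were not told apart, EV replicate 2 was the lowest array and the groups overlapped; TUSC3 minus EV came to 0.14 (SE 0.11, 95% interval -0.11 to 0.39; limma, unadjusted p = 0.227, adjusted p = 0.848).

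The feedback regulators held the 1 gene with an unadjusted p under 0.05. PPP1R15A encodes GADD34, a regulatory subunit of the phosphatase that removes the phosphate from eIF2 and so restores translation. PPP1R15A read 9.23, 9.15 and 9.11 in TUSC3 replicates 1 to 3 and 9.04, 9.02 and 8.93 in EV replicates 1 to 3. All 3 TUSC3 arrays lay above all 3 EV arrays, with EV replicate 3 the lowest. The means were 9.16 ± 0.0626 and 8.99 ± 0.0576 (SD, n = 3 each), and TUSC3 minus EV came to 0.17 (SE 0.070, 95% interval 0.0020 to 0.33; limma, unadjusted p = 0.0480, adjusted p = 0.746). As a ratio of signals this is 1.12-fold, with an interval from 1.00 to 1.26. The exact two-sided permutation test gave p = 0.1, which is its minimum with 3 arrays a group. The unadjusted p was at or above 0.05 in 6 of 13 alternatives, among them the fits without TUSC3 replicate 1, without TUSC3 replicate 2 and without any 1 of the EV arrays. The difference stayed above 0 in each, from 0.13 to 0.20.

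TRIB3, a pseudokinase that binds ATF4 and dampens it, differed by 0.0016 (-0.24 to 0.24). It ran from 7.41 to 7.70, with EV replicate 2 the highest array. SESN2, a leucine-binding inhibitor of mTORC1 signalling, ran from 6.44 to 6.90 and differed by -0.13 (-0.41 to 0.16). CHAC1, which degrades glutathione and is a sensitive ATF4 target, stayed between 7.24 and 7.37 and differed by -0.026 (-0.19 to 0.13). VLDLR, a lipoprotein receptor induced by ATF4, ran from 7.81 to 8.19 and differed by 0.054 (-0.20 to 0.31). STC2, a secreted glycoprotein, ran from 9.71 to 9.82 and differed by 0.019 (-0.13 to 0.17). None of these 5 separated the groups.

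EV replicate 2 was the lowest array for 4 of the 13 stress regulators, ATF3, DDIT3, NUPR1 and VLDLR, a pattern named after the values were seen. TUSC3 replicate 3 was the lowest for another 4, EIF2AK4, TRIB3, SESN2 and CHAC1, and EV replicate 2 was also the highest for 3. The mean of the 13 genes on that array lay -0.072 from their EV mean, against 0.034 and 0.038 on the other EV arrays and between -0.035 and 0.045 on the TUSC3 arrays. The median on EV replicate 2 lay at 0.0085, and 8 of the 13 genes lay above their EV mean there. Without that array the ATF3 difference was -0.23, DDIT3 -0.072, SESN2 -0.22, VLDLR -0.056 and NUPR1 0.038, and none of them passed (limma, lowest adjusted p = 0.786, for ATF3). In each of these genes that array was the lowest of the EV group, so leaving it out had to lower the difference. The 3 genes where it was the highest array moved up, CEBPB to 0.0092, CEBPG to -0.044 and TRIB3 to 0.074.

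**Figure D2:**
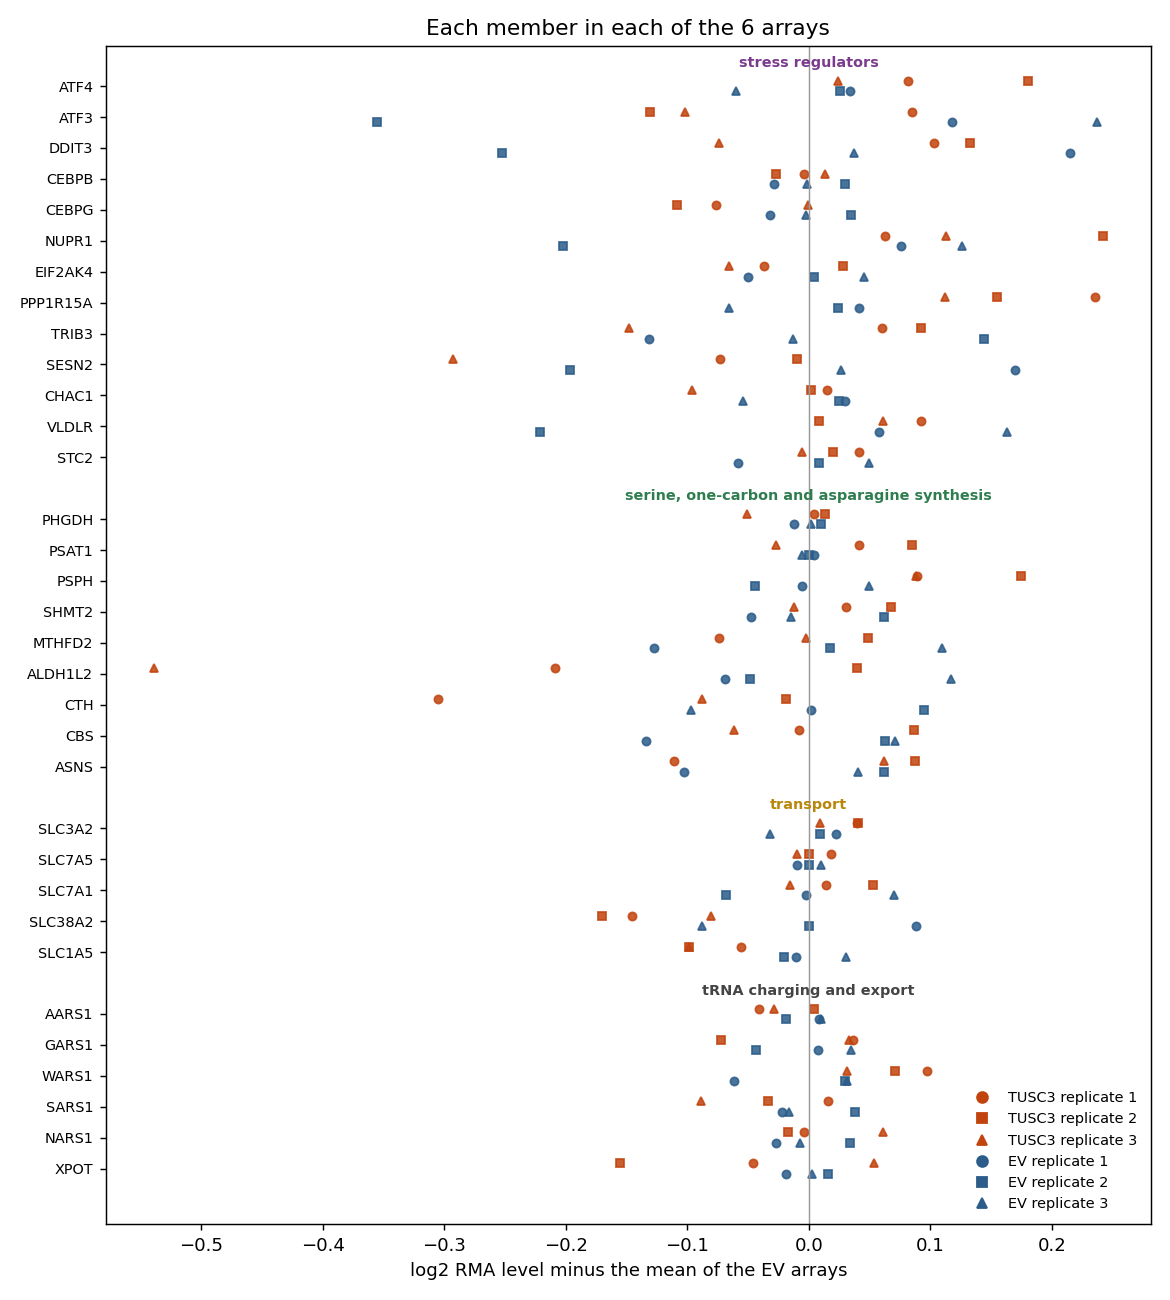
Log2 RMA level of each gene on each of the 6 arrays minus that gene's mean over the EV arrays (x axis), with TUSC3 arrays in orange and EV arrays in blue and 1 marker shape per replicate number. Only PPP1R15A, PSPH and SLC1A5 show the 2 colours fully apart, and EV replicate 2 sits far left for ATF3, DDIT3, NUPR1 and VLDLR.

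Among the genes of serine synthesis, PSPH had the smallest p. PHGDH, PSAT1 and PSPH encode the enzymes that make serine from a glycolytic intermediate in consecutive steps. PSPH read 9.43, 9.52 and 9.43 in TUSC3 replicates 1 to 3 and 9.34, 9.30 and 9.39 in EV replicates 1 to 3. All 3 TUSC3 arrays lay above all 3 EV arrays, TUSC3 replicate 2 being the highest. The means were 9.46 ± 0.0495 and 9.35 ± 0.0471 (SD, n = 3 each), and TUSC3 minus EV came to 0.12 (SE 0.066, 95% interval -0.040 to 0.27; limma, unadjusted p = 0.121, adjusted p = 0.790). The other enzymes of the route did not share this separation. PHGDH, which commits carbon to the pathway, stayed between 10.82 and 10.88 and differed by -0.011 (-0.16 to 0.13). PSAT1 stayed between 12.13 and 12.24 and differed by 0.033 (-0.12 to 0.18), with TUSC3 replicate 2 the highest array and TUSC3 replicate 3 the lowest.

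The mitochondrial one-carbon enzymes take the carbon of serine onto folate. SHMT2, which splits serine into glycine and a folate-bound carbon, ran from 10.22 to 10.34 and differed by 0.029 (-0.13 to 0.19). MTHFD2, which oxidises that carbon, ran from 9.82 to 10.06 and differed by -0.0089 (-0.21 to 0.19). ALDH1L2, a mitochondrial formyl-folate dehydrogenase, read 4.16, 4.41 and 3.83 in TUSC3 replicates 1 to 3 and 4.30, 4.32 and 4.49 in EV replicates 1 to 3. TUSC3 replicate 3 was far below the rest and TUSC3 replicate 2 lay among the EV arrays, so the groups overlapped. The means were 4.14 ± 0.290 and 4.37 ± 0.102 (SD, n = 3 each), and TUSC3 minus EV came to -0.24 (SE 0.15, 95% interval -0.58 to 0.11; limma, unadjusted p = 0.152, adjusted p = 0.811). Without TUSC3 replicate 3 the difference was -0.085, and without TUSC3 replicate 2 it was -0.37. Its level lay below the array median, and a low signal was not told apart from background.

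CBS and CTH carry out transsulfuration, which uses serine to make cysteine. CBS ran from 9.80 to 10.02 and differed by 0.0056 (-0.19 to 0.21). CTH, a well-known ATF4 target, ran from 5.76 to 6.16 and differed by -0.14 (-0.37 to 0.093), with TUSC3 replicate 1 the lowest array. ASNS read 9.66, 9.86 and 9.83 in TUSC3 replicates 1 to 3 and 9.67, 9.83 and 9.81 in EV replicates 1 to 3. Replicate 1 was the lowest array of each group and the groups overlapped fully. The means were 9.78 ± 0.108 and 9.77 ± 0.0892 (SD, n = 3 each), and TUSC3 minus EV came to 0.013 (SE 0.085, 95% interval -0.19 to 0.21; limma, unadjusted p = 0.885, adjusted p = 0.986). Over the 9 genes, 5 lay above 0 and 4 below, with a median difference of 0.0056. TUSC3 replicate 2 was the highest array for 6 of the 9, while TUSC3 replicates 1 and 3 were the highest for 0.

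By substrate, the transport genes were carriers of large neutral and cationic amino acids or carriers of glutamine and other small neutral ones. SLC7A5 and SLC3A2 encode the light and heavy chains of the LAT1 exchanger, which imports leucine and other essential amino acids. SLC7A5 read 12.61, 12.59 and 12.58 in TUSC3 replicates 1 to 3 and 12.58, 12.59 and 12.60 in EV replicates 1 to 3. These 6 values were nearly the same, with a pooled SD of 0.012 that was smaller than the spread of 99.9% of probe sets, and the difference was 0.0028 (-0.14 to 0.14). SLC3A2 stayed between 11.93 and 12.00 and differed by 0.030 (-0.11 to 0.17). SLC7A1, the carrier of arginine and lysine, ran from 9.77 to 9.91 and differed by 0.017 (-0.14 to 0.18).

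The 2 carriers of small neutral amino acids among the 5 transport genes had differences below 0. With so few genes this was not tested as a trait of the class. SLC38A2 encodes SNAT2, a sodium-coupled carrier induced when amino acids are scarce. SLC38A2 read 12.30, 12.28 and 12.37 in TUSC3 replicates 1 to 3 and 12.54, 12.45 and 12.36 in EV replicates 1 to 3. EV replicates 1 and 2 lay above all TUSC3 arrays, and EV replicate 3 lay just under TUSC3 replicate 3, so the groups overlapped. The means were 12.32 ± 0.0464 and 12.45 ± 0.0879 (SD, n = 3 each), and TUSC3 minus EV came to -0.13 (SE 0.073, 95% interval -0.31 to 0.042; limma, unadjusted p = 0.116, adjusted p = 0.790). SLC1A5 encodes ASCT2, a glutamine exchanger. SLC1A5 read 12.36, 12.32 and 12.32 in TUSC3 replicates 1 to 3 and 12.41, 12.40 and 12.45 in EV replicates 1 to 3. All 3 TUSC3 arrays lay below all 3 EV arrays. The means were 12.33 ± 0.0246 and 12.42 ± 0.0269 (SD, n = 3 each), and TUSC3 minus EV came to -0.084 (SE 0.061, 95% interval -0.23 to 0.061; limma, unadjusted p = 0.213, adjusted p = 0.844). Averaged over the 5 transport genes, the arrays lay between -0.039 and -0.026 from the EV mean in the TUSC3 group and between -0.016 and 0.018 in the EV group. The groups did not overlap in that mean, which is given without a test, but the median difference of the 5 genes was 0.0028.

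The genes of tRNA charging and export had the narrowest range of differences of the 4 role groups, from -0.049 to 0.067. AARS1, GARS1, WARS1, SARS1 and NARS1 encode the cytosolic synthetases that load alanine, glycine, tryptophan, serine and asparagine onto their tRNAs, and XPOT encodes the exporter that carries tRNA out of the nucleus. WARS1 read 10.27, 10.24 and 10.20 in TUSC3 replicates 1 to 3 and 10.11, 10.20 and 10.20 in EV replicates 1 to 3. TUSC3 replicates 1 and 2 were the highest arrays, but EV replicates 2 and 3 and TUSC3 replicate 3 all read 10.20, and TUSC3 minus EV came to 0.067 (SE 0.065, 95% interval -0.088 to 0.22; limma, unadjusted p = 0.341, adjusted p = 0.879). XPOT read 11.26, 11.15 and 11.36 in TUSC3 replicates 1 to 3 and 11.29, 11.32 and 11.31 in EV replicates 1 to 3. The TUSC3 arrays spread to both sides of the EV arrays, and TUSC3 minus EV came to -0.049 (SE 0.075, 95% interval -0.23 to 0.13; limma, unadjusted p = 0.532, adjusted p = 0.928).

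The other synthetases had differences between -0.036 and 0.013. AARS1 ran from 10.67 to 10.72 with an interval of -0.16 to 0.12, and GARS1 from 11.63 to 11.74 with -0.16 to 0.16. SARS1 ran from 9.30 to 9.43 with -0.19 to 0.12, and NARS1 from 10.48 to 10.57 with -0.14 to 0.16. Of the 6 genes 2 lay above 0 and 4 below, the median difference was -0.011, and none separated the groups.

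**Figure D3:**
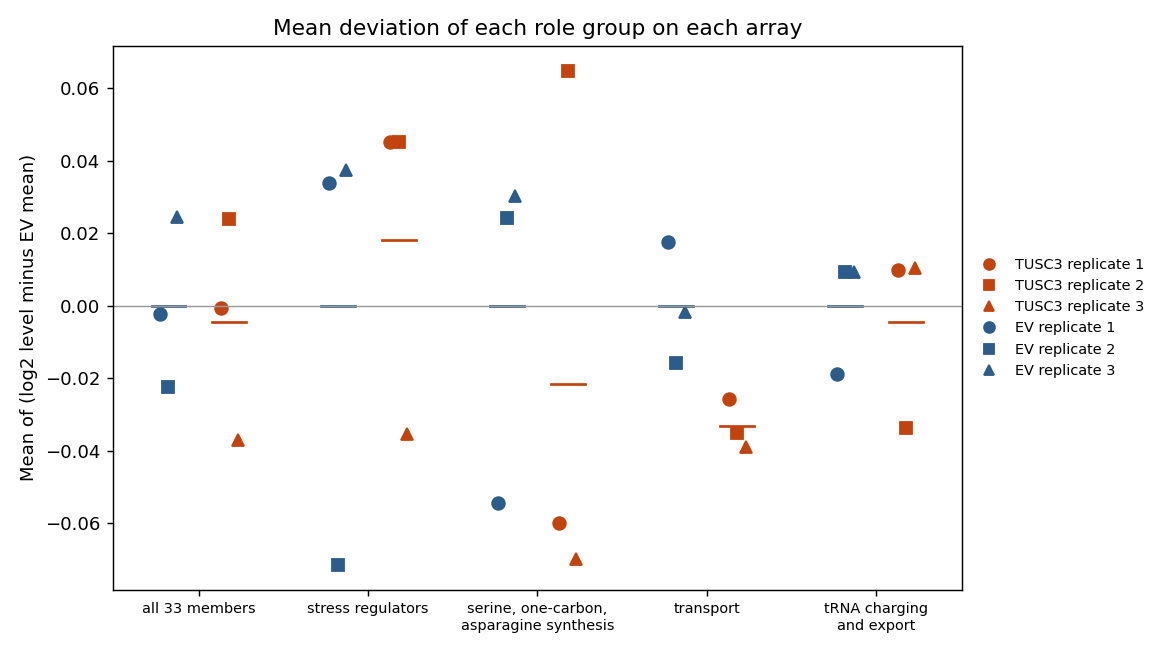
Mean over the genes of each role group of the log2 level minus the gene's EV mean (y axis), for each of the 6 arrays, with short lines for the group means. All points lie between -0.072 and 0.065, and the groups overlap in every column except transport.

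The difference between groups was larger than the pooled SD between arrays of a group for 11 of the 33 genes (33.3%, against 32.8% of all probe sets). The genes were measured with little spread, a median pooled SD of 0.055 beside 0.121 for all probe sets and 0.0887 for those with a mean at or above the array median. Their median EV level was 9.84, beside 5.49 and 8.02 for these sets, so neither set was matched to them in level. Whether the small spread goes with the level was not tested. ATF3 and ALDH1L2 were the most variable, at 0.24 and 0.22, and SLC7A5 and AARS1 the least, at 0.012 and 0.020. In limma the spread of each gene is drawn towards a common value of 0.111, which exceeded the measured spread of 25 of the 33 genes. This keeps the SE of even the steadiest genes at or above 0.0598. The 10 genes with the ATF4 core in a promoter had a median difference of -0.011, from -0.084 to 0.030. The 19 with a promoter and no core in the window searched had one of 0.0016, from -0.14 to 0.17.

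**Figure D4:**
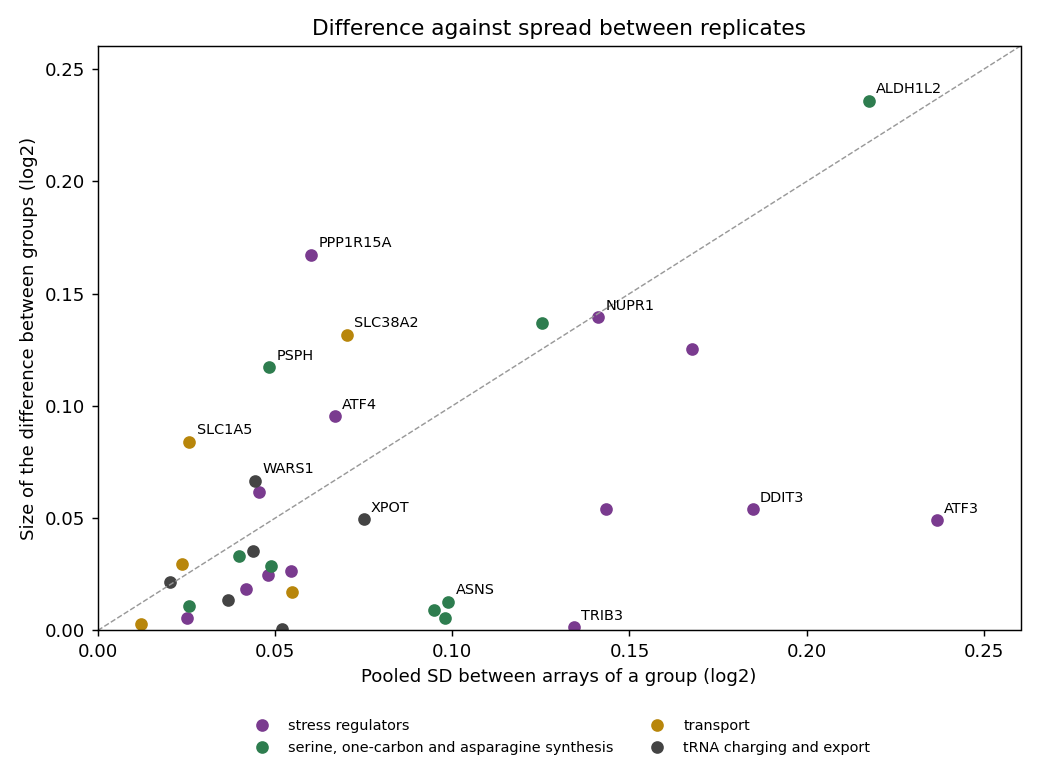
Size of the TUSC3 minus EV difference (y axis, log2) against the pooled SD between arrays of a group (x axis, log2) for the 33 genes, with the dashed line at equality. PPP1R15A, SLC38A2, PSPH, ATF4 and SLC1A5 lie clearly above the line, while ATF3, DDIT3 and TRIB3 lie far below it.

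Beyond the 33 genes, 68 further genes from lists of related function were measured, and 0 of them passed the threshold in either direction. At an unadjusted p under 0.05 there were 5, of which 2 had differences above 0 and 3 below, against 3.36% and 3.3% of all probe sets. The groups did not overlap for 9 of the 68 (13.2%, against 12.2% of all probe sets). The 2 genes with the smallest p are named from each list. Among 13 genes of the eIF2 kinases, eIF2 and its exchange factor eIF2B, 7 lay above 0. EIF2B3, a subunit of eIF2B, differed by 0.22 (limma, unadjusted p = 0.0376, adjusted p = 0.746), and EIF2AK3, which encodes PERK, the eIF2 kinase of the endoplasmic reticulum, by -0.14 (-0.30 to 0.022).

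Among 16 other bZIP partners and stress targets, 3 lay above 0 and 13 below, with a median of -0.083. At an unadjusted p under 0.05 there were 3 of the 16 (18.8%, against 6.66% of all probe sets), all below 0. The list was chosen with earlier results of these data known, so these counts describe it and are not a test. KLHL24, a ubiquitin ligase adaptor, differed by -0.33 (-0.48 to -0.18; limma, adjusted p = 0.668), and GDF15, a secreted stress cytokine, by -0.20 (-0.36 to -0.046; adjusted p = 0.732). The third was BATF3, a bZIP factor, at -0.37 (-0.68 to -0.065; adjusted p = 0.738). Among 15 other genes of the cytosolic synthetases 11 lay above 0, with HARS1, the histidyl synthetase, at 0.11 and LARS1, the leucyl synthetase, at -0.10. The 12 other genes of folate, proline and glutamate metabolism that were measured all lay above 0, with a median of 0.058, which is given without a test. None had an unadjusted p under 0.05, and SHMT1, the cytosolic counterpart of SHMT2, was at 0.11 (-0.041 to 0.25) and GLDC, a subunit of the glycine cleavage system, at 0.20 (-0.079 to 0.49). Of the 12 genes 3 lay below the array median, among them GLDC with an EV level of 3.84. For these a low signal was not told apart from background. Of 12 other amino acid transporters 4 lay above 0. SLC7A11, the cystine carrier that is a target of both ATF4 and NRF2, was at 0.24 (0.075 to 0.40; adjusted p = 0.732), and SLC7A6, a carrier that partners SLC3A2, at -0.12 (-0.30 to 0.068).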

How the data were processed

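The data were 6 Affymetrix arrays of SW480 cells, 3 TUSC3 and 3 EV, grouped by their labels. RMA was used, per the submitters' processing notes, and the values the authors deposited were log2 levels, 1 per probe set and array; the RMA version, array model and probe set definition were not given in the sources used here. RMA makes the arrays' distributions equal, so a shift of most genes in 1 direction cannot be seen. TUSC3 replicate 1 held more distinct values than the rest (22765 against 9648 on each other array), and the reason was not tested. No detection call was used. Precision is limited by the number of arrays.

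Of 25088 probe sets, 23752 had 1 gene symbol, 0 had several and 1336 are unnamed here. Differences were fitted over all of them with limma 3.58.1 in R 4.3.3 (lmFit, eBayes, two-sided, no filter), with Benjamini-Hochberg adjustment and a threshold of 0.05. The procedure was tested on simulated data and made some false calls there. It missed more of the 1.5-fold changes put in than it found, part of the 2-fold and a few of the 3-fold. The 33 genes and the lists were chosen with earlier results of these data known. Array values are given for the 2 genes with the smallest p in each role group, ATF4 and ASNS, and the 2 with the smallest p are named from each further list; ATF3, DDIT3, SLC7A5 and BATF3 were added after their values were seen. In the further lists 2 synthetase genes and 4 of folate, proline and glutamate metabolism were not analysed here. Same-numbered replicates did not deviate together (correlations -0.0137, 0.0402 and -0.0132), so the numbers were not treated as pairs. Alternatives were renormalization, centring, a dim filter, a trended and robust prior, array weights, the replicate block, named genes only and each array left out. Promoters came from RefSeq (GRCh38.p14).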

Additional observations from a re-analysis of the deposited data

How the results depend on the processing

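In all 13 alternatives 0 of the 33 genes passed the threshold (limma), and the TUSC3 difference stayed past it, between 8.51 and 8.66 without 1 array. The count of genes with an unadjusted p under 0.05 was 4 with the trended and robust prior (PPP1R15A, PSPH, SLC38A2 and SLC1A5, where 7.39% of all probe sets were counted) and 0 with the replicate block (6.29%); the cause was not tested. Without 1 array it ran from 0 to 1, the 1 being PPP1R15A without TUSC3 replicate 3 and ALDH1L2 without TUSC3 replicate 2, and 0 without TUSC3 replicate 1 or any EV array. The median difference ran from -0.011 to 0.014 without 1 array. The count of genes whose groups did not overlap ran from 3 to 10 without 1 array, with 5 without TUSC3 replicate 2 (21.2% of all probe sets), 10 without TUSC3 replicate 3 (24.7%), 7 without EV replicate 2 (22.5%) and 7 without EV replicate 3 (21.9%). Fewer arrays overlap less readily, so these shares stand beside 12.2% with all arrays. Of 429 single-gene values over the alternatives, 400 kept direction and stayed short of the threshold and 29, from 16 genes, changed sign without passing. The bound of 1.5-fold was lost for ALDH1L2 with the replicate block and without any 1 array other than TUSC3 replicate 3. The trended and robust prior gave 2 calls over all probe sets in place of 1. No detection call was used, so for NUPR1 and ALDH1L2, which lay below the array median, signal over background was not known.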
